A study of Mus musculus with 12 samples.

Results

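The gene set described here is a list of 41 mouse genes for the extracellular matrix that fibroblasts lay down: collagen chains, small leucine-rich proteoglycans, elastic fibre and adhesive glycoproteins, matricellular proteins, enzymes that process, cross-link or cut the matrix, and the receptor Pdgfra. Members were found by symbol among the probe sets annotated to exactly 1 gene, and each gene was read from its probe set with the highest mean over the 12 arrays. On that rule 40 of the 41 genes were measured, out of 18193 genes with such a probe set, and Fbn1 was not analysed here.

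The study asked how loss of Gdap1, a mitochondrial outer membrane protein mutated in forms of Charcot-Marie-Tooth neuropathy, alters gene expression in sciatic nerve and in motoneurons. There were 4 groups of 3 Affymetrix arrays each: laser-captured motoneurons from Gdap1 knock-out mice, laser-captured motoneurons from wild-type mice, whole sciatic nerve lysates from Gdap1 knock-out mice, and whole sciatic nerve lysates from wild-type mice. The knock-out is a deletion of exon 5, and every mouse was 2 months old and untreated. The submitters picked the 3 RNA preparations of each group by yield and quality, and one extraction kit served the captured cells and another the nerves, so the effects of tissue and of extraction cannot be told apart. Nothing in the labels says whether a nerve and a motoneuron sample came from the same mouse. The arrays of a group are labelled biological replicates.

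Collagen chains are made in the endoplasmic reticulum, where prolyl hydroxylases and chaperones prepare them for assembly into triple helices. After secretion the propeptides of the fibrillar types are cut off, the molecules align into fibrils, and lysyl oxidases cross-link them, while small leucine-rich proteoglycans bind the fibril surface and regulate its thickness. In a peripheral nerve this matrix forms the epineurium and fills the endoneurium between axons, and fibroblasts are its main source. Motoneuron cell bodies lie in central nervous tissue, where fibrillar collagen is mostly restricted to vessels and meninges.

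The 250 bases before the annotated start are shown for the genes on which the tissue comparison turns. Ogn, the gene of the proteoglycan osteoglycin, had the largest tissue difference and Sparc, the gene of a collagen-binding matricellular protein, the smallest. Col1a2 and Col3a1 encode chains of the main fibrillar collagens of nerve. The sequences are from RefSeq, build GRCm38.p6, written 5′ to 3′ on the gene's own strand, and capitals mark matches on either strand to 3 short motifs: the CCAAT box, the TATA box letters TATAAA, and the GC box letters GGGCGG. They lie at chr13:49607765-49608014, plus strand (Ogn), at chr11:55420081-55420330, minus strand (Sparc), at chr6:4505368-4505617, plus strand (Col1a2), and at chr1:45311288-45311537, plus strand (Col3a1).
Ogn: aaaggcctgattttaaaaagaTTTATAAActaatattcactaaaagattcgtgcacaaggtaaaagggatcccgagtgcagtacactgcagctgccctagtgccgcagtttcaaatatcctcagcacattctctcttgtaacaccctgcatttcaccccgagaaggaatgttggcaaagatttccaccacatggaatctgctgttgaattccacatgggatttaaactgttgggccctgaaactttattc
Sparc: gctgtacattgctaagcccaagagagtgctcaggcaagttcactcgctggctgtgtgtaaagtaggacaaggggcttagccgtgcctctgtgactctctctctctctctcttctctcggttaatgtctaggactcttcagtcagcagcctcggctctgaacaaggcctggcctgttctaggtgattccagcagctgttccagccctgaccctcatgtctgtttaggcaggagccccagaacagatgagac
Col1a2: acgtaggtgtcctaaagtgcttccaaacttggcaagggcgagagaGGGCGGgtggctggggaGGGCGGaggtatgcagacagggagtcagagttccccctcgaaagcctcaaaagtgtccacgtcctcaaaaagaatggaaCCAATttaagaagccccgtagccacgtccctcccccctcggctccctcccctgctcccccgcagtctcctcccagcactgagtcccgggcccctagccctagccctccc
Col3a1: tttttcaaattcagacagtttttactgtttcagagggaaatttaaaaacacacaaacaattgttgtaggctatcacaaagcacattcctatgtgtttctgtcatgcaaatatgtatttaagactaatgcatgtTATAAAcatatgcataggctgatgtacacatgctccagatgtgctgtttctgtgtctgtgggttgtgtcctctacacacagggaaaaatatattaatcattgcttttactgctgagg

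In the Ogn window TATAAA was found on both strands, the matches overlapping, with first bases at -229 and -227 from the start. The Col1a2 window held CCAAT at -109 and GGGCGG at -205 and -188. The Col3a1 window held TATAAA at -117, and the Sparc window held none of these motifs. The promoter table covered 26 of the 40 measured members in 31 windows. CCAAT was in 22.6% of the members' windows, against 33.8% of all 32851 windows. TATAAA was in 12.9% of the members' windows, against 12.4% of all windows, and GGGCGG in 41.9%, against 32.7%. These shares describe letters in a fixed window and were not tested.

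The values are log2 expression values as deposited, so a difference of 1 is a doubling. Array medians ran from 6.535 to 6.585 in motoneurons and from 8.285 to 8.398 in nerve, and the tissues appear to have been normalized apart, so differences between tissues were also read as ranks within arrays and after 2 other scalings. No 2 arrays held identical values. Per the submitters' design text the Gdap1 probe sets lie outside the deleted exon, so a loss of signal in the knockout cannot check the labels. The brightest read 13.35, 13.23 and 13.36 in knockout motoneurons, against 13.30, 13.38 and 13.34 in wild-type motoneurons. Of its 4 probe sets 0 were called between genotypes in motoneurons, and one dimmer Gdap1 probe set read 9.88, 9.62 and 9.80 in knockout motoneurons, against 9.09, 8.89 and 9.21 in wild-type motoneurons, without overlap (difference 0.70, adjusted p = 0.123). Of 7 motoneuron markers 6 were called higher in captured motoneurons than in nerve in both genotypes as deposited. Of all genes 18.9% in knockout and 17.7% in wild-type mice were. All 7 were called higher after the other scalings, on which many genes were. Those shares were 63.1% in knockout and 61.2% in wild-type mice after centring, and 44.5% and 43.1% after quantile normalization. The exception as deposited was Chat, the acetylcholine-synthesizing enzyme of motoneurons, then called lower in knockout mice. It averaged 4.58 in knockout and 4.83 in wild-type motoneurons, against 5.17 in knockout and 5.12 in wild-type nerves. Xist, transcribed from the inactive X chromosome, was above 12 in 1 nerve array of each genotype and low in the other 4, and was low in 1 of the 6 motoneuron arrays.

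All 40 matrix genes were lower in captured motoneurons than in sciatic nerve, in knockout and in wild-type mice alike. A gene was called when its adjusted p-value was under 0.05 in limma's moderated test over all probe sets with Benjamini-Hochberg adjustment. By that rule 40 of 40 members were called lower in knockout mice, where 64.1% of all genes were called lower, and 40 of 40 in wild-type mice, where 63.7% were. The median difference of the members was -7.21 in knockout mice, against -0.86 over all genes. In wild-type mice it was -7.44, against -0.90 over all genes. The largest adjusted p-value of a member was 4.05e-06 in knockout mice and 7.38e-06 in wild-type mice. In lysates and captured material alike, fewer cells of a type and less RNA per cell cannot be told apart.

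**Figure D1:**
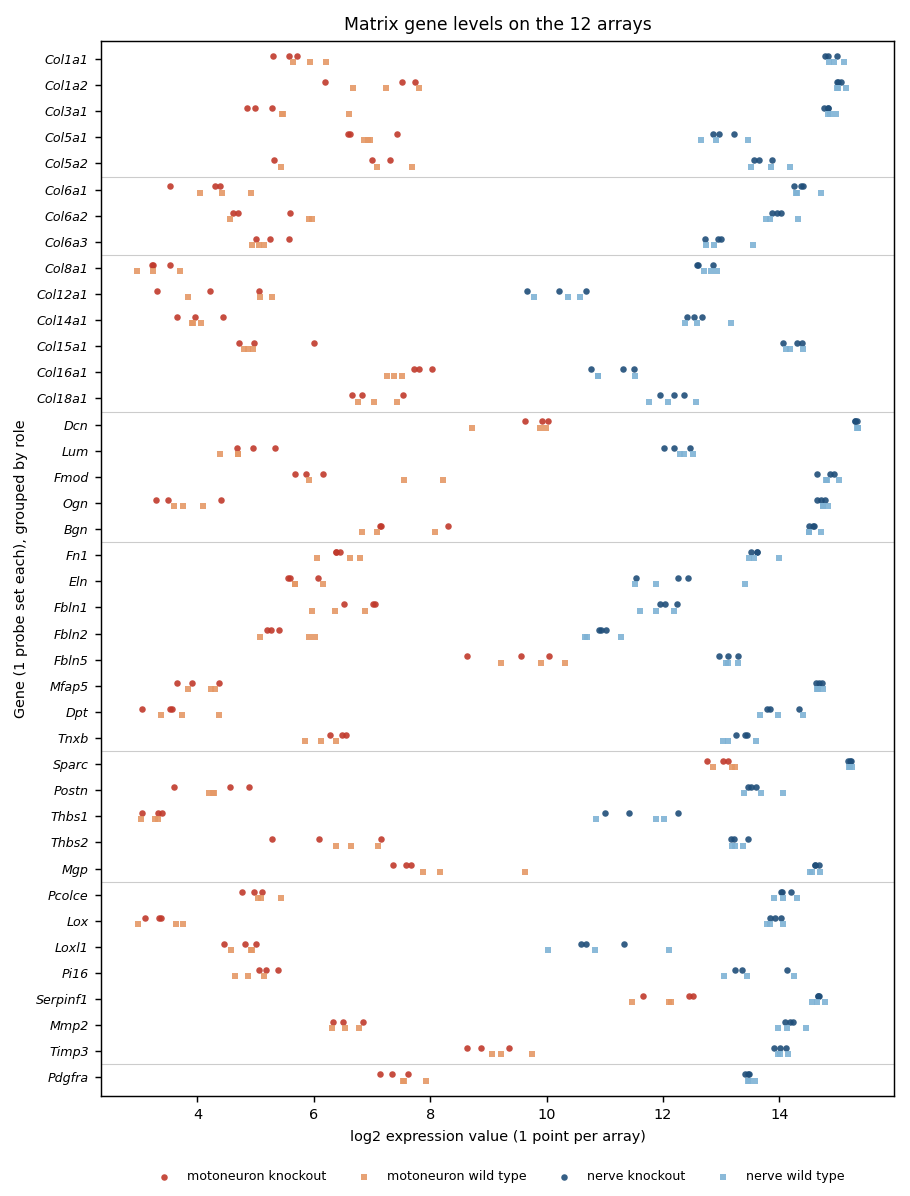
Log2 expression value (horizontal axis) of each of the 40 matrix genes (rows, grouped by role) on every array, 1 point per array: red circles are knockout motoneurons, orange squares wild-type motoneurons, dark blue circles knockout nerves and light blue squares wild-type nerves. The motoneuron and nerve points of each gene form separate clusters, farthest apart for Ogn and closest for Sparc.

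The size of the members' tissue difference depended on the scale of the values, and its direction was the same under the 3 scalings run. With every array centred on its median the members' median difference was -5.43 in knockout and -5.68 in wild-type mice, against 0.92 in knockout and 0.86 in wild-type mice over all genes. With all arrays quantile normalized together it was -6.09 in knockout and -6.40 in wild-type mice, against 0.25 in knockout and 0.24 in wild-type mice over all genes. All 40 members stayed called lower on both scales in both genotypes. The share of all genes called lower moved far more: it was 20.5% in knockout and 20% in wild-type mice after centring, and 31.8% in knockout and 30.6% in wild-type mice after quantile normalization. Relative to the median of all genes the members lay 6.35 lower in knockout and 6.54 lower in wild-type mice as deposited. Centring shifts all genes of an array alike, so it could not change this distance. After quantile normalization the members lay 6.34 lower in knockout and 6.63 lower in wild-type mice.

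Ranks within an array gave the same picture without any scaling. Each probe set was given its percentile among all 45037 probe sets of the array. Probe sets differ in brightness, so percentiles do not order the expression of different genes. The medians, counts and extremes below describe the same 40 genes in the 2 tissues. The median percentile of the 40 members was 42.9 in motoneurons, against 96.4 in nerve. In motoneurons 2 members averaged above the 90th percentile and 9 below the 25th, whereas in nerve 31 averaged above the 90th and 0 below the 25th. The lowest mean percentile was 7.34 in motoneurons (Thbs1), against 69.1 in nerve (Col12a1). The 2 members above the 90th percentile in motoneurons were Sparc at 95.8 and Serpinf1 at 90.6, followed by Dcn at 73.7 and Fbln5 at 73.0.

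**Figure D2:**
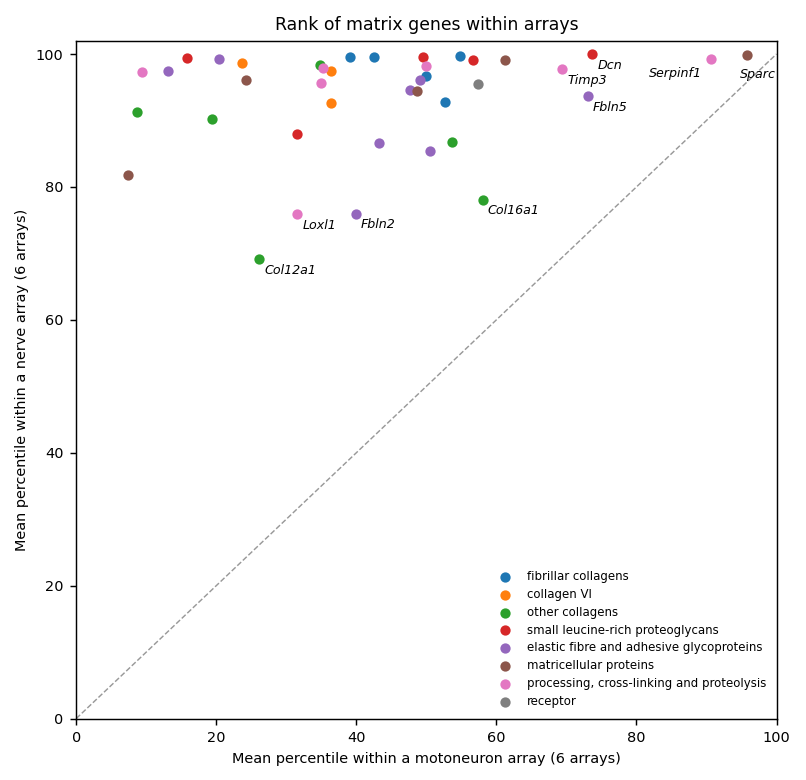
Mean percentile of each matrix gene among all probe sets of an array, over the 6 motoneuron arrays (horizontal axis) and the 6 nerve arrays (vertical axis), 1 point per gene coloured by role; the dashed line marks equal rank. Every point lies above the line, with Sparc and Serpinf1 nearest to it at the right.

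Among the fibrillar collagens, whose molecules form the load-bearing fibrils of connective tissue, the tissue difference was largest for Col3a1 and Col1a1. Col3a1, the single chain of type III collagen, read 4.85, 4.99 and 5.29 in knockout motoneurons and 5.47, 5.46 and 6.60 in wild-type motoneurons, against 14.83, 14.83 and 14.76 in knockout nerves and 14.83, 14.97 and 14.86 in wild-type nerves. The highest motoneuron array was more than 8 log2 units under the lowest nerve array. Its difference was -9.76 ± 0.15 (SE) in knockout and -9.05 ± 0.30 in wild-type mice. A further Col3a1 probe set gave -10.67 in knockout and -11.23 in wild-type mice. Col1a1 and Col1a2 encode the chains of type I collagen, and their differences were -9.35 and -7.87 in knockout mice and -9.03 and -7.81 in wild-type mice. A further Col1a2 probe set gave -9.58 in knockout and -9.79 in wild-type mice, beyond the chosen Col1a1 probe set. Col5a1 and Col5a2, chains of the type V collagen that nucleates fibrils, were lower by less: -6.13 and -7.15 in knockout mice and -6.09 and -7.11 in wild-type mice.

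The chains of collagen VI, which forms beaded microfilaments around cells, were called lower in both genotypes. Col6a1 had one of the 5 largest tissue differences of the set. It read 4.39, 4.30 and 3.52 in knockout motoneurons and 4.43, 4.04 and 4.93 in wild-type motoneurons, against 14.40, 14.36 and 14.25 in knockout nerves and 14.30, 14.71 and 14.29 in wild-type nerves. Its difference was -10.27 ± 0.24 (SE) in knockout and -9.96 ± 0.26 in wild-type mice. Its motoneuron values lay near the 25th percentile of their arrays, 4.30 to 4.40, a range in which the files used here give no detection call. Col6a2 and Col6a3 differed by -8.98 and -7.61 in knockout mice and by -8.49 and -8.01 in wild-type mice.

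The remaining collagens split widely. Col8a1, a network-forming short-chain collagen, Col14a1, a fibril-associated collagen, and Col15a1, a collagen of basement membrane zones, differed by -9.35, -8.52 and -9.01 in knockout mice and by -9.52, -8.75 and -9.36 in wild-type mice. Col12a1, also fibril-associated, and Col18a1, the source of endostatin, differed by -5.98 and -5.16 in knockout mice and by -5.51 and -5.06 in wild-type mice. Col16a1, a fibril-associated collagen, had the smallest difference of all collagens in the set with 1 probe set per gene. Its difference was -3.34 ± 0.21 (SE) in knockout and -3.71 ± 0.22 in wild-type mice. Further probe sets of Col12a1 differed by less: -2.33, -2.08 and -0.16 in knockout mice and -2.05, -2.20 and -0.68 in wild-type mice.

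The small leucine-rich proteoglycans bind collagen fibrils, and Ogn had the largest tissue difference of the set. Ogn read 3.50, 3.28 and 4.41 in knockout motoneurons and 3.59, 3.75 and 4.09 in wild-type motoneurons, against 14.64, 14.71 and 14.78 in knockout nerves and 14.75, 14.75 and 14.84 in wild-type nerves. Its difference of -10.98 ± 0.28 (SE) in knockout and -10.97 ± 0.18 in wild-type mice is given with no fold, because its probe set averaged the 15.8th percentile of the motoneuron arrays, where the files used here give no detection call. Fmod, fibromodulin, and Lum, lumican, differed by -8.92 and -7.23 in knockout mice and by -7.65 and -7.79 in wild-type mice. Bgn, biglycan, differed by -7.03 in knockout and -7.24 in wild-type mice.

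Dcn, decorin, differed less on its chosen probe set, which averaged the 73.7th percentile of the motoneuron arrays. It read 9.64, 9.93 and 10.03 in knockout motoneurons and 9.88, 9.99 and 8.72 in wild-type motoneurons, against 15.29, 15.33 and 15.31 in knockout nerves and 15.33, 15.36 and 15.34 in wild-type nerves. The difference was -5.45 ± 0.10 (SE) in knockout and -5.81 ± 0.30 in wild-type mice. The other Dcn probe set averaged 5.03 in knockout and 4.81 in wild-type motoneurons. It differed by more, -7.69 in knockout and -7.81 in wild-type mice. The nerve values of the chosen Dcn probe set came close to the highest value of any probe set on these arrays, 15.516 to 15.555. Whether its nerve level was compressed there was not tested.

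Elastic fibre and adhesive glycoproteins included several of the largest differences and one of the smallest. Mfap5, a microfibril-associated protein, read 3.64, 4.38 and 3.91 in knockout motoneurons and 4.24, 3.85 and 4.30 in wild-type motoneurons, against 14.67, 14.63 and 14.73 in knockout nerves and 14.65, 14.65 and 14.75 in wild-type nerves. Dpt, dermatopontin, which binds decorin and collagen, read 3.05, 3.52 and 3.56 in knockout motoneurons and 3.37, 3.74 and 4.36 in wild-type motoneurons, against 13.83, 14.34 and 13.78 in knockout nerves and 13.97, 14.40 and 13.67 in wild-type nerves. Both genes were low on every motoneuron array and high on every nerve array. The difference of Mfap5 was -10.70 in knockout and -10.55 in wild-type mice, and that of Dpt was -10.61 in knockout and -10.19 in wild-type mice. Fn1, fibronectin, and Tnxb, tenascin X, differed by -7.18 and -6.93 in knockout mice and by -7.19 and -7.13 in wild-type mice, and Eln, elastin, by -6.33 in knockout and -6.44 in wild-type mice.

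The fibulins, which link elastin to microfibrils, had smaller tissue differences. Fbln1 and Fbln2 differed by -5.21 and -5.66 in knockout mice and by -5.49 and -5.21 in wild-type mice. Fbln5 read 10.03, 8.64 and 9.56 in knockout motoneurons and 9.90, 10.32 and 9.21 in wild-type motoneurons, against 13.12, 12.96 and 13.28 in knockout nerves and 13.08, 13.12 and 13.28 in wild-type nerves. The tissues did not overlap, and the difference was -3.71 ± 0.30 (SE) in knockout and -3.35 ± 0.26 in wild-type mice.

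Sparc stood at the opposite end from Ogn. Sparc is made by fibroblasts and, as background, also by glia and endothelium. It read 13.11, 12.76 and 13.04 in knockout motoneurons and 13.19, 12.86 and 13.24 in wild-type motoneurons, against 15.21, 15.18 and 15.23 in knockout nerves and 15.20, 15.19 and 15.25 in wild-type nerves. The difference was -2.24 ± 0.08 (SE) in knockout and -2.12 ± 0.10 in wild-type mice. A further bright Sparc probe set gave more, -3.07 in knockout and -3.01 in wild-type mice. A dimmer one gave -1.89 in knockout and -1.94 in wild-type mice. On the chosen probe set the size depended on the scaling. It was -0.46 in knockout and -0.36 in wild-type mice with arrays centred on their medians. After quantile normalization it was -1.70 in knockout and -1.61 in wild-type mice. The nerve values of Sparc, like those of Dcn, lay close to the highest value on the arrays. Postn, periostin, and Thbs1 and Thbs2, thrombospondins, differed by -9.18, -8.31 and -7.10 in knockout mice and by -9.46, -8.38 and -6.56 in wild-type mice. Mgp, matrix Gla protein, an inhibitor of calcification made by fibroblasts and vessel wall cells, differed by -7.10 in knockout and -6.03 in wild-type mice.

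Among the genes of collagen processing and turnover, Lox had the largest tissue difference. Lox, a lysyl oxidase that starts collagen and elastin cross-links, read 3.34, 3.09 and 3.37 in knockout motoneurons and 3.63, 2.98 and 3.75 in wild-type motoneurons, against 14.03, 13.84 and 13.93 in knockout nerves and 13.83, 13.78 and 14.06 in wild-type nerves. Its difference was -10.67 ± 0.17 (SE) in knockout and -10.44 ± 0.24 in wild-type mice. Lox averaged the 9.45th percentile of the motoneuron arrays, again a range without detection calls here. The same limit holds for the differences of Thbs1, at percentile 7.34, Col8a1, at 8.70, Dpt, at 13.1, and Mfap5, at 20.3. Pcolce, which enhances cleavage of the procollagen C-propeptide, Pi16, a marker of adventitial fibroblasts, and Mmp2, a gelatinase, differed by -9.14, -8.37 and -7.61 in knockout mice and by -8.90, -8.69 and -7.64 in wild-type mice. Loxl1, the elastin cross-linking oxidase, and Timp3, an inhibitor of metalloproteases, differed by -6.10 and -5.05 in knockout mice and by -6.17 and -4.70 in wild-type mice.

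Serpinf1, the gene of pigment epithelium-derived factor, was with Sparc and Fbln5 among the 3 members with the smallest difference in wild-type mice. In knockout mice Col16a1 took the place of Fbln5. Serpinf1 read 12.45, 11.65 and 12.51 in knockout motoneurons and 12.14, 12.09 and 11.46 in wild-type motoneurons, against 14.69, 14.67 and 14.66 in knockout nerves and 14.64, 14.79 and 14.56 in wild-type nerves. The difference was -2.47 ± 0.20 (SE) in knockout and -2.77 ± 0.18 in wild-type mice. The other Serpinf1 probe set differed by more, -3.75 in knockout and -4.32 in wild-type mice. Pdgfra, the receptor for platelet-derived growth factor A that marks fibroblasts and, in the central nervous system, oligodendrocyte precursors, differed by -6.08 in knockout and -5.83 in wild-type mice.

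**Figure D3:**
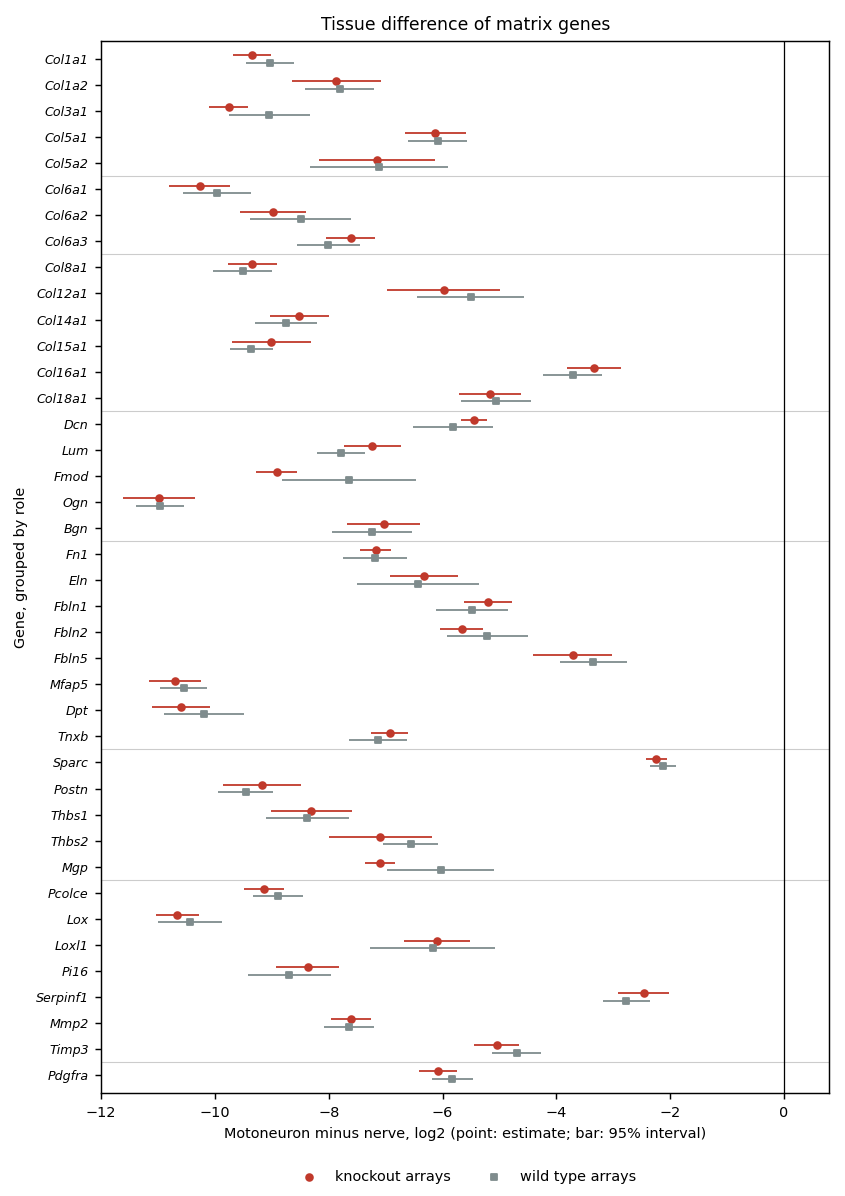
Motoneuron minus nerve difference on the log2 scale (horizontal axis) of each matrix gene, with its 95% interval, in knockout mice (red circles) and wild-type mice (grey squares); the vertical line marks no difference. Every interval lies below 0 and the genotypes' points lie close together, farthest apart for Fmod.

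The tissue differences in knockout and wild-type mice were measured on separate arrays and ran close together. Across the 40 genes they correlated with r = 0.98, a description only, since both share the array platform and its probes. The gap between them had a median of 0.28, was under 0.5 for 35 of the 40 genes, and was largest for Fmod at 1.27. Taking every probe set of a member in place of 1 per gene, 88 of 89 were called lower in knockout mice and 89 of 89 in wild-type mice. The one exception was a further probe set of Col12a1, at -0.16 in knockout mice.

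Markers of fibroblasts that are no members were mostly lower too. The counts of other lists are on the deposited scale, on which 64.1% of all genes were called lower in knockout and 63.7% in wild-type mice. The shares called higher were 18.9% in knockout and 17.7% in wild-type mice. Counts after centring and quantile normalization, alternatives chosen after seeing the data, follow them. Centring left 20.5% of all genes called lower and 63.1% higher in knockout mice, and 20% lower and 61.2% higher in wild-type mice. Quantile normalization left 31.8% lower and 44.5% higher in knockout mice, and 30.6% lower and 43.1% higher in wild-type mice. Of these 10 fibroblast markers 9 were called lower in motoneurons of knockout mice and 10 in those of wild-type mice, with medians of -6.04 in knockout and -6.38 in wild-type mice. Igfbp6, a binding protein of insulin-like growth factors, and Dpep1, a membrane dipeptidase, differed by -6.55 and -8.45 in knockout mice and by -7.22 and -8.59 in wild-type mice. The exception in knockout mice was Wif1, a secreted Wnt inhibitor, at 2.83 in knockout motoneurons, against 3.26 in knockout nerves. Wif1 turned with the scaling: after centring it was called higher in knockout motoneurons, and 9 of the 10 genes were called lower in each genotype.

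Markers of other cells of a nerve showed the same direction as deposited. The measured mural, endothelial, macrophage, adipocyte, skeletal muscle, perineurial and Schwann cell markers, 48 genes in all, were each called lower in motoneurons in both genotypes. After centring 41 of them were called lower in knockout and 40 in wild-type mice, and 3 were called higher in both, and after quantile normalization 46 were called lower in knockout and 45 in wild-type mice. The 3 called higher on centring were Mbp, Pmp22 and S100b, all from the list of Schwann cell markers, so 2 of these 6 markers were then called lower. Which cells gave these transcripts in captured material was not tested. The 4 oligodendrocyte markers were called higher in motoneurons in both genotypes under the 3 scalings, and of 5 astrocyte markers 3 were called higher and 2 lower under all 3. Of 8 leptomeningeal markers 7 were called lower and 1, the prostaglandin D synthase Ptgds, higher as deposited. After centring 6 of them were called lower in knockout and 5 in wild-type mice, after quantile normalization 5 in each genotype, and 2 were called higher on both scales.

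Many other collagen genes were lower in motoneurons as well. Of 29 collagen genes listed outside the set 28 were measured, and Col28a1 was not analysed here. As deposited 24 were called lower and 3 higher in motoneurons of knockout mice, and 23 lower and 3 higher in those of wild-type mice, with medians of -4.02 in knockout and -3.57 in wild-type mice. After centring and after quantile normalization 16 were called lower in each genotype, and 4 to 8 were called higher. Col4a1, a basement membrane chain, differed by -6.22 in knockout and -6.03 in wild-type mice, and Col5a3, the further chain of type V, by -7.58 in knockout and -7.33 in wild-type mice. The 3 collagens called higher in motoneurons as deposited, and also under the other scalings, were Col19a1, Col22a1 and the transmembrane collagen Col25a1. Col22a1 averaged 8.39 in knockout and 8.30 in wild-type motoneurons, against 5.23 in knockout and 5.09 in wild-type nerves, and Col25a1 averaged 8.47 in knockout and 8.90 in wild-type motoneurons, against 5.63 in knockout and 5.04 in wild-type nerves.

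For the machinery that folds and cuts collagen the count depended on the scaling. Of 19 measured folding and processing genes 18 were called lower in knockout and 17 in wild-type mice as deposited, and 0 higher, with medians of -2.65 in knockout and -2.92 in wild-type mice. After centring 10 were called lower and 5 higher in knockout mice, and 11 lower and 3 higher in wild-type mice. After quantile normalization 15 were called lower and 1 higher in each genotype. The lower calls after centring were 52.6% of these genes in knockout and 57.9% in wild-type mice. Of all genes 20.5% in knockout and 20% in wild-type mice were then called lower. P4ha2 and P4hb, subunits of prolyl hydroxylase, and the lysyl oxidase Loxl4 were among those that turned on centring in both genotypes, and Loxl4 turned on quantile normalization too. Serpinh1, the collagen chaperone of the endoplasmic reticulum, differed by -7.92 in knockout and -7.50 in wild-type mice, and P4ha1, another prolyl hydroxylase subunit, by -3.82 in knockout and -3.51 in wild-type mice.

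For other matrix proteoglycans and for proteases the count called lower moved by at most 1 gene under the 3 scalings. Of 26 other proteoglycans and glycoproteins 24 were called lower and 2 higher in each genotype, and 23 lower and 2 higher under each other scaling. Smoc2, a calcium-binding matrix protein, stood at -10.99 in knockout and -11.04 in wild-type mice and Prelp, a leucine-rich repeat proteoglycan, at -8.83 in knockout and -8.79 in wild-type mice. Of 16 proteases and inhibitors 13 were called lower in each genotype, and 2 higher in knockout and 1 in wild-type mice. After centring 12 were called lower and 4 higher in each genotype, and after quantile normalization 13 lower and 2 higher. Fap, a fibroblast surface protease, differed by -8.82 in knockout and -9.12 in wild-type mice, and Adamts5, an aggrecanase, by -4.65 in knockout and -5.08 in wild-type mice.

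The TGF-beta pathway is a main inducer of matrix genes, and all 20 of its measured genes were called lower in each genotype as deposited. After centring 13 were called lower (65%) and 4 higher in knockout mice, and 12 lower (60%) and 6 higher in wild-type mice. Of all genes 20.5% in knockout and 20% in wild-type mice were then called lower. After quantile normalization 15 were called lower (75%) in each genotype, against 31.8% of all genes in knockout and 30.6% in wild-type mice. On that scale 1 was called higher in knockout and 0 in wild-type mice. The ligand Tgfb2, the signal transducer Smad2, the latency protein Ltbp3 and the pseudoreceptor Bambi turned on centring in both genotypes. Among those called lower as deposited were the receptors Tgfbr2, at -4.99 in knockout and -4.50 in wild-type mice, and Tgfbr3, at -5.57 in knockout and -5.29 in wild-type mice.

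Between genotypes, none of the 40 matrix genes passed the test in motoneurons. No gene of the whole series did, 0% of 18193, and the smallest adjusted p-value among members was 0.267. In knockout motoneurons 15 members had higher and 25 lower values, with a median difference of -0.09, against 0.02 over all genes. An unadjusted limma p-value under 0.05 was reached by 4 of the 40 members (10%), against 20.8% of all genes. The groups did not overlap for 3 members (7.5%), against 25.8% of all genes, so both shares were under the background.

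The 4 members with an unadjusted p-value under 0.05 were Col16a1, Fmod, Col3a1 and Mgp. Col16a1 read 7.73, 8.03 and 7.80 in knockout motoneurons, against 7.51, 7.38 and 7.26 in wild-type motoneurons. Every knockout array was above every wild-type array, and the difference was 0.47 (95% interval 0.03 to 0.91, unadjusted p = 0.0376, adjusted p = 0.267). Fmod read 6.15, 5.68 and 5.87 in knockout motoneurons, against 8.22, 5.92 and 7.55 in wild-type motoneurons. The groups overlapped, because wild type 2 lay among the knockout arrays, and the difference was -1.33 (95% interval -2.57 to -0.10, unadjusted p = 0.0379, adjusted p = 0.268). All 6 Fmod probe sets had negative differences, between -1.33 and -0.56.

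Col3a1, whose motoneuron values are listed above, was lower on each knockout array than on each wild-type array, with wild type 3 more than 1 unit above the other two. The difference was -0.80 (95% interval -1.57 to -0.02, unadjusted p = 0.0448, adjusted p = 0.283), and its other probe set gave 0.39. Mgp read 7.58, 7.36 and 7.67 in knockout motoneurons, against 7.88, 8.16 and 9.63 in wild-type motoneurons. The groups did not overlap, wild type 3 again stood highest, and the difference was -1.02 (95% interval -2.02 to -0.03, unadjusted p = 0.0453, adjusted p = 0.285). Col1a1 came next among the genes with lower values, at 5.72, 5.57 and 5.29 in knockout motoneurons, against 5.93, 5.64 and 6.21 in wild-type motoneurons. The groups overlapped, the difference was -0.40 (adjusted p = 0.414), and its other probe set gave -1.31.

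After Col16a1, the members with higher values in knockout motoneurons were Lum, Fbln1 and Pi16. Lum read 4.95, 4.67 and 5.33 in knockout motoneurons, against 4.39, 4.70 and 4.70 in wild-type motoneurons, with overlapping groups (difference 0.39, adjusted p = 0.42). Fbln1 read 7.02, 7.05 and 6.52 in knockout motoneurons, against 5.97, 6.35 and 6.88 in wild-type motoneurons (difference 0.46, adjusted p = 0.46). Pi16 read 5.17, 5.06 and 5.39 in knockout motoneurons, against 4.87, 4.64 and 5.14 in wild-type motoneurons (difference 0.32, adjusted p = 0.465). Lum, Fbln1 and Pi16 each overlapped between the genotypes. Among all 89 probe sets of the members, 0 were called and 9 had an unadjusted p-value under 0.05, and 18 genes had probe sets of both signs.

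Vessel wall markers lay beside these values. All 9 mural cell markers had lower values in knockout motoneurons, 0 of them called, and their mean level was 6.35 to 6.53 in knockout motoneurons, against 6.77 to 7.24 in wild-type motoneurons. Endothelial means overlapped between the genotypes, at 6.55 to 6.76 in knockout and 6.70 to 6.94 in wild-type motoneurons. Wild type 3, the array with the highest Mgp and Col3a1, had the highest mural mean. It was the highest of the 6 motoneuron arrays for 13 of the 40 matrix genes. That array also had the highest mean of the endothelial, Schwann cell, astrocyte and motoneuron markers, so this was not particular to mural cells. It was not highest for the fibroblast, macrophage or oligodendrocyte markers. Markers of fibroblasts outside the set averaged 5.88 to 6.23 in knockout motoneurons, against 5.50 to 5.95 in wild-type motoneurons. The part of these cells in the matrix values was not tested.

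The motoneuron data bound the members' changes loosely. The 95% interval of a member's difference extended a median of 0.61 to either side. For 24 of the 40 genes it lay within 1 unit of no difference, and for 2 within 0.5. The widest was that of Col5a2, a type V chain, from -1.77 to 1.40.

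**Figure D4:**
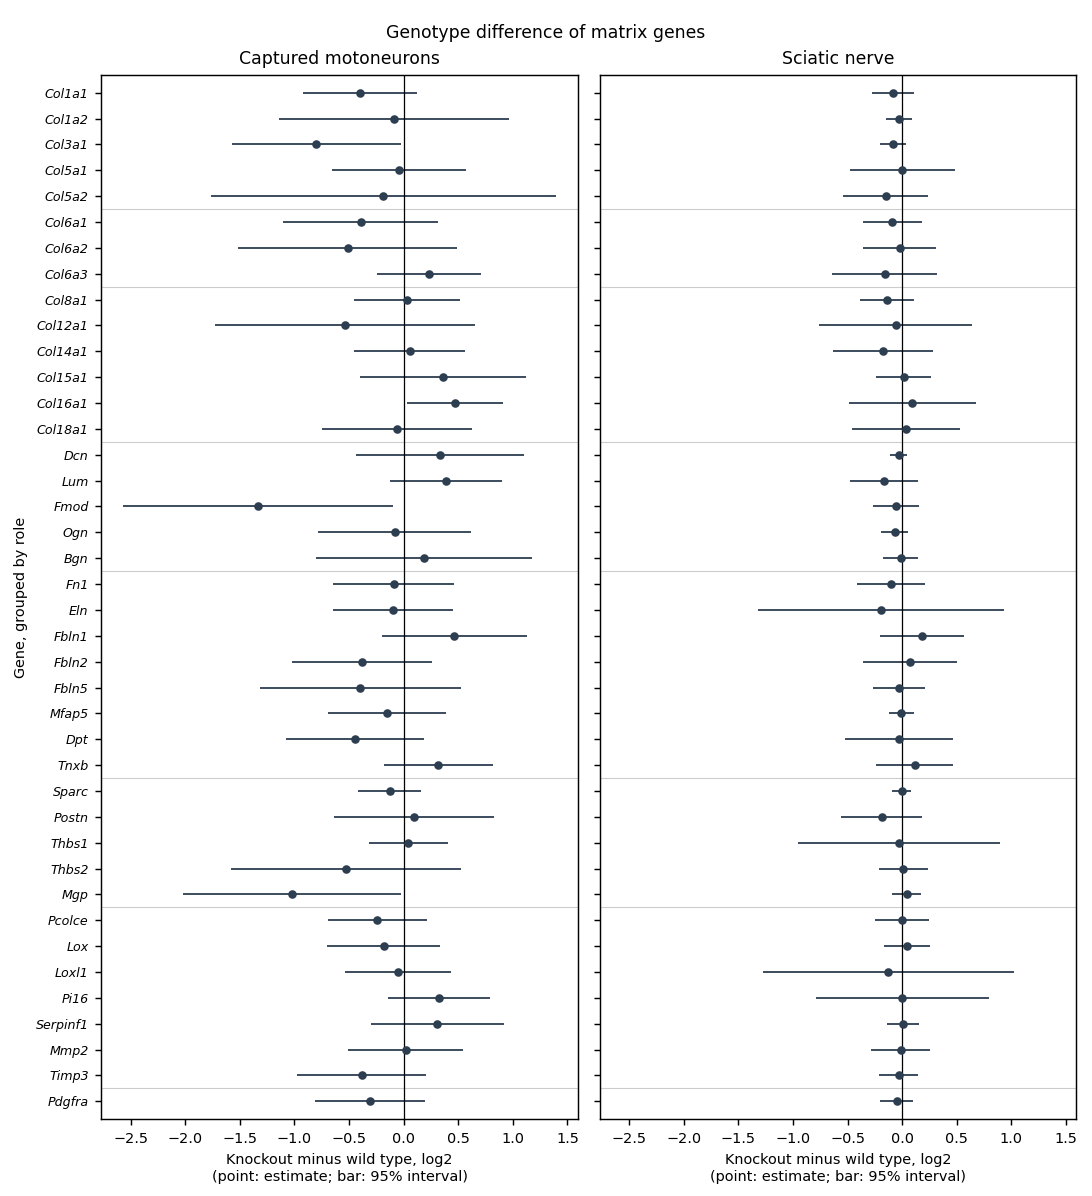
Knockout minus wild-type difference on the log2 scale (horizontal axis) of each matrix gene with its 95% interval, in captured motoneurons (left) and sciatic nerve (right); the vertical line marks no difference. Intervals are wider in motoneurons, where those of Col3a1, Col16a1, Fmod and Mgp exclude 0 before adjustment, and all intervals in nerve include 0.

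In sciatic nerve, where matrix genes ranked high, none of the 40 members passed the test between genotypes either. No gene of the series did (0%), and every member's adjusted p-value was 1. An unadjusted p-value under 0.05 was reached by 0 members, against 2.04% of all genes. In knockout nerves 13 members had higher and 27 lower values, with a median difference of -0.03, against 0.00 over all genes. The groups did not overlap for 1 member (2.5%), against 6.91% of all genes. This was Dcn, whose nearest arrays, knockout 2 and wild type 1, read alike to 2 decimals, at a difference of -0.03 (95% interval -0.11 to 0.04).

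The members with the smallest unadjusted p-values in nerve differed by fractions of a log2 unit. Col3a1, whose nerve values are listed above, differed by -0.08 (95% interval -0.20 to 0.04, unadjusted p = 0.15), the smallest p-value of the set. Col8a1 read 12.59, 12.58 and 12.87 in knockout nerves, against 12.71, 12.92 and 12.83 in wild-type nerves (difference -0.14). Lum read 12.18, 12.01 and 12.46 in knockout nerves, against 12.51, 12.28 and 12.36 in wild-type nerves (difference -0.17). Both genes overlapped between the genotypes, and so did Ogn, at a difference of -0.07.

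On the higher side stood Fbln1, Tnxb, Mgp and Lox. Fbln1 read 12.03, 12.24 and 11.94 in knockout nerves, against 11.88, 12.19 and 11.60 in wild-type nerves (difference 0.18, 95% interval -0.20 to 0.56). Tnxb read 13.45, 13.41 and 13.25 in knockout nerves, against 13.04, 13.60 and 13.11 in wild-type nerves (difference 0.12). Mgp read 14.67, 14.62 and 14.61 in knockout nerves, against 14.55, 14.70 and 14.52 in wild-type nerves (difference 0.04). All 3 overlapped between the genotypes, as did Lox, also at 0.04.

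Intervals were narrower on the nerve arrays than on the motoneuron arrays. The 95% interval extended a median of 0.27 to either side, and it lay within 1 unit of no difference for 38 of the 40 genes and within 0.5 for 27. The 2 exceptions were Eln, from -1.32 to 0.93, and Loxl1, from -1.28 to 1.02. The tightest belonged to Dcn and Sparc, whose SDs over the 6 nerve arrays were 0.02 and 0.03. Both genes lay close to the highest value on these arrays, and whether compression there narrowed their intervals was not tested.

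One wild-type nerve array set the spread of the group. Wild type 2 was the highest of the 6 nerve arrays for 29 of the 40 members, and the members' mean was 13.70 there. The other arrays averaged 13.47, 13.43 and 13.45 in knockout nerves and 13.42 and 13.35 in wild-type nerves. Without wild type 2 the members' median difference turned to 0.05. Skeletal muscle markers were lowest on the same array, with a mean of 8.13, against 9.49 to 10.55 on the knockout nerves and higher values on the other wild-type nerves, up to 13.60. Wild type 2 was also 1 of the 2 nerve arrays with high Xist, and without both of those the members' median difference was 0.04. In that refit 6 members had an unadjusted limma p-value under 0.05 and 0 were called. The share of all genes under 0.05 in that refit is not given here, so the 6 cannot be read as many or few. The part of muscle tissue, sex or dissection in these levels was not tested.

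Loxl1 and Eln, both genes of elastic fibres, had the largest SD over the nerve arrays. Loxl1 read 10.60, 11.32 and 10.67 in knockout nerves, against 10.84, 12.10 and 10.03 in wild-type nerves. Eln read 12.26, 12.43 and 11.54 in knockout nerves, against 11.89, 13.41 and 11.51 in wild-type nerves. Both were highest on wild type 2 and second highest on knockout 2, and Pi16, at 13.36, 14.14 and 13.23 in knockout nerves and 13.43, 14.24 and 13.05 in wild-type nerves, had the same order at the top. Thbs1 ran the other way, at 11.41, 11.01 and 12.25 in knockout nerves and 11.88, 10.85 and 12.02 in wild-type nerves, lowest on those same arrays. Macrophage markers were highest on these 2 arrays, with means of 12.72 on knockout 2 and 12.75 on wild type 2, against 12.10 to 12.35 on the others, and adipocyte markers likewise, at 14.04 and 13.95, against 12.96 to 13.65. Their part in the spread was not tested.

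**Figure D5:**
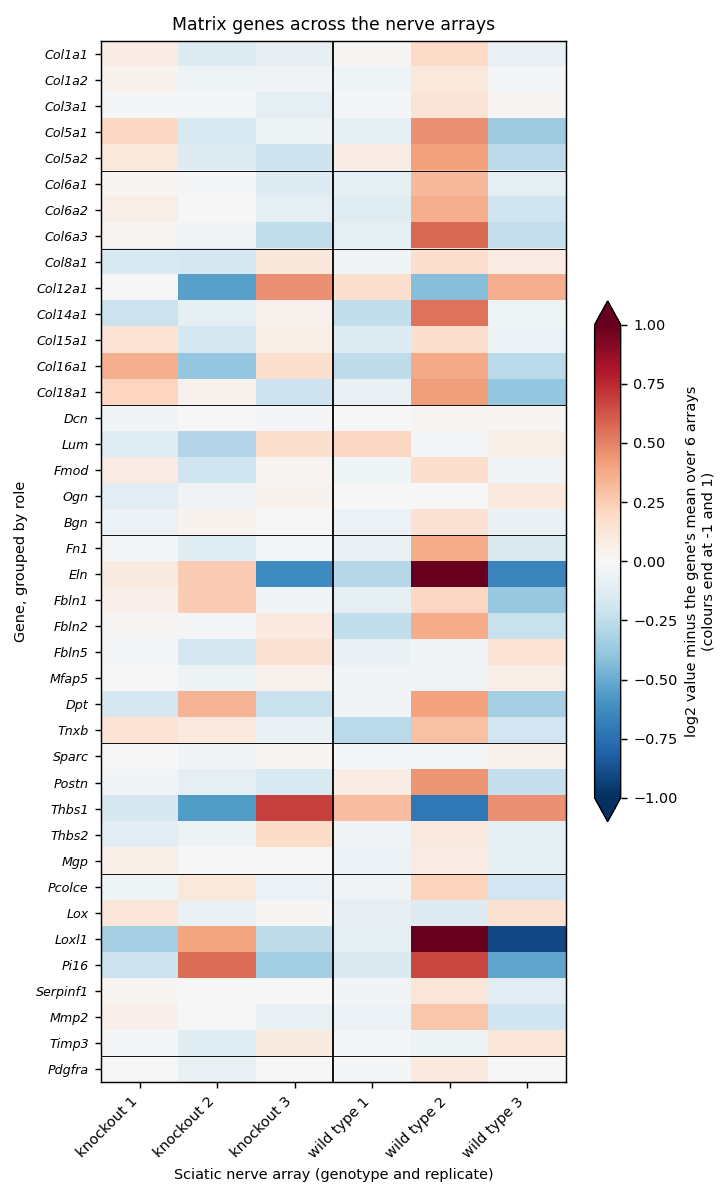
Log2 value of each matrix gene (rows, grouped by role) on the 6 sciatic nerve arrays (columns, knockout left and wild type right), as its deviation from the gene's mean over those arrays; red is above and blue below the mean, and colours end at -1 and 1. The column of wild type 2 is red for most genes, with Thbs1 and Col12a1 blue there and on knockout 2.

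Whether the genotype difference itself differed between the tissues was tested as an interaction, and none of the 40 members, and 0% of all genes, passed. One member had an unadjusted p-value under 0.05 (2.5%), against 9.07% of all genes. This was Mgp, whose genotype difference was -1.02 in motoneurons, against 0.04 in nerve (interaction -1.07, unadjusted p = 0.0391, adjusted p = 0.653). Fmod and Col3a1 had interactions of -1.27 and -0.72, with adjusted p-values of 0.662 and 0.68. The median interaction over the members was -0.04, against 0.02 over all genes, and it turned to 0.02 without nerve wild type 3 and to 0.00 without motoneuron knockout 1.

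Gdap1 lies on chromosome 1, and 6 of the members do too: Col3a1, Col5a2, Col6a3, Fmod, Fn1 and Dpt. In motoneurons 5 of the 6 had lower values in the knockout, from -1.33 (Fmod) to -0.09 (Fn1), and Col6a3 had a higher one, at 0.24. In nerve all 6 had lower values, from -0.16 (Col6a3) to -0.03 (Dpt). Of all 40 members 25 had lower values in knockout motoneurons and 27 in knockout nerves. None of the 6 was called in either tissue, and a link to their chromosome was not tested.

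No gene of the other matrix lists was called between genotypes. In motoneurons the smallest unadjusted limma p-values were 0.00744 for Col4a5, a basement membrane collagen chain (difference -1.23, adjusted p = 0.153), and 0.00562 for Ppib, a collagen-folding cyclophilin (difference 0.27, adjusted p = 0.142). Of the 20 TGF-beta pathway genes 5 had an unadjusted p-value under 0.05 in motoneurons, where 20.8% of all genes did. Among the 5 were the receptors Tgfbr2 (difference -0.47, adjusted p = 0.198) and Tgfbr1 (difference -0.57, adjusted p = 0.218). In nerve Kera, keratocan, a proteoglycan related to lumican, had the smallest unadjusted p-value of these lists, 0.00357, with means of 4.69 in knockout nerves and 5.56 in wild-type nerves and an adjusted p-value of 1.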

How the data were processed

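RNA of captured motoneurons and of sciatic nerve lysates was amplified, biotin-labelled and hybridised to 1-colour Affymetrix arrays, 3 per tissue and genotype, per the labels' protocols. The authors deposited log2 expression values per probe set, made with Affymetrix Expression Console 1.1 per the submitters' processing notes. How probe sets were summarized and normalized is not given in the sources used here. Of 45101 probe sets 64 controls were left out and 45037 tested. Of these 34945 carry 1 gene symbol, 932 several and 9160 none in the platform annotation, and symbols were updated through RefSeq (GRCm38.p6). A gene was read from its probe set with the highest mean.

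All 45037 probe sets entered every fit in limma 3.58.1 (R 4.3.3; lmFit, then eBayes with a mean trend), with Benjamini-Hochberg adjustment. Genotype was fitted within each tissue, tissue within each genotype, and the interaction over all 12 arrays. Intervals are 95% intervals of the fit. The code was tested on simulated data. With no detection calls, low values were kept, and the number of arrays limits the precision. Deviations of same-numbered arrays from their group means correlated at 0.03 to 0.31 in nerve and at -0.08 to 0.09 in motoneurons, so the numbers were not used as pairs.

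Values on every array are given, for each genotype comparison, for the 4 members with higher and the 4 with lower values of smallest unadjusted p; for tissue in wild type, for the 5 largest and 3 smallest differences; and for the 3 smallest interaction p-values. Up to 2 genes of each other list were named by smallest p. Dcn, Loxl1, Eln, Thbs1, the 3 collagens higher in motoneurons, the list genes said to turn with the scaling, Chat, Ptgds and Wif1 were named after their values were seen. The members and lists were chosen with earlier results of these data known. Alternatives covered scaling, a filter on dim probe sets, probe set choice, array weights, the prior trend, Xist and Gapdh covariates, a replicate block, 1 fit of all arrays, and leaving out arrays.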

Additional observations from a re-analysis of the deposited data

How the results depend on the processing

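No member that was tested gained or lost a call under any alternative run, and the counts of called members stayed at 0 in the genotype comparisons and the interaction. They stayed at 40 in each tissue comparison, except that the filter on dim probe sets left 38 members to test in knockout and 39 in wild type. That filter kept members through their high nerve values, so it says nothing about the stability of the calls. Every probe set of the members, an alternative chosen after seeing the data, gave 88 called lower in knockout and 89 in wild type. Averaging the probe sets of a gene, the members' median tissue difference was -7.01 in knockout and -7.07 in wild type. Centring on array medians gave -5.43 in knockout and -5.68 in wild type, and quantile normalization together gave -6.09 in knockout and -6.40 in wild type. Leaving out each array in turn gave -7.56 to -7.19 in knockout and -7.68 to -7.14 in wild type. With the replicate block the medians were -7.21 in knockout and -7.44 in wild type, and it changed no call.

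Uncalled differences of single members changed sign in 61 of 616 refits in motoneurons, 114 of 680 in nerve and 68 of 798 for the interaction. The members' median in nerve turned to 0.02 with the Gapdh covariate, besides the 2 array removals given above, and the median interaction to 0.04 with Xist as a covariate and to 0.00 with averaged probe sets, besides the 2 array removals given with it; the cause was not tested. In the motoneuron genotype comparison 4646 of 45037 probe sets of the whole series were called without motoneuron wild type 3. The count was 2929 with array weights and 828 with all 12 arrays in 1 fit. It was 61 of 22518 with the filter on dim probe sets, and 0 in the other alternatives run. Of the called probe sets 0 were the chosen probe sets of members, and the members' further probe sets were not counted there. The filter on dim probe sets left 16 members in that comparison. The counts of other gene lists called lower, given above for each scaling, fell by more than 1.5 times on centring for the Schwann cell markers, the folding and processing genes and the TGF-beta pathway in both genotypes. The share of all genes called lower fell from 64.1% to 20.5% in knockout and from 63.7% to 20% in wild-type mice.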
